A study of Mus musculus with 22 samples.

Results

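The microRNA genes Mir144, Mir451a, Mir223, Mir155, Mir221 and Mir222 were followed through erythroid differentiation by their histone marks and CTCF occupancy. These 6 genes, of 2202 annotated microRNA genes, were taken from the GENCODE M21 annotation of mm10 by name, and each was studied with 20 kb on either side. They lie at 4 loci, since Mir144 and Mir451a share one and Mir221 and Mir222 share another. G1E-ER4 cells (called G1ER here) are a subclone of a mouse erythroid progenitor line that lacks Gata1. They carry GATA1 fused to an estrogen receptor domain, so that β-estradiol activates GATA1 and starts differentiation. All samples come from this line, grown with SCF and EPO, and were collected at 0, 2, 6, 12 and 24 h of β-estradiol. ChIP-seq peak lists were analyzed for H3K4me3, a mark of active promoters, and H3K27ac, a mark of active promoters and enhancers, with 2 lists per time point and mark. The transcription factor CTCF, which binds at loop anchors, had 1 list at 0 h and 1 at 24 h, which makes 22 lists in all.

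MicroRNAs are cut from hairpins within longer transcripts, and the mature strand guides Argonaute proteins to mRNAs that pair with its seed near the 5′ end. miR-144 and miR-451a come from a shared erythroid transcript that GATA1 is known to activate, and miR-451a is unusual in that Ago2 cuts its hairpin without Dicer. miR-223 is typical of granulocytes and monocytes, where PU.1 and C/EBP factors drive it. miR-155 is induced in activated lymphoid and myeloid cells. miR-221 and miR-222 are known to repress Kit, the SCF receptor, and decline as erythroid cells mature.

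The mature sequences below, from RefSeq (GRCm38.p6, with all 6 genes matched), show which of these microRNAs can share targets. Capitals mark the seed, bases 2 to 8.
miR-144-3p: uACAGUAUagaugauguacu
miR-451a: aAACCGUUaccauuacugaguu
miR-223-3p: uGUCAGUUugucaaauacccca
miR-155-5p: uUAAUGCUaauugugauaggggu
miR-221-3p: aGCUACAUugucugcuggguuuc
miR-222-3p: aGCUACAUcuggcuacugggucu
miR-221-3p and miR-222-3p have the same seed, and the other 4 seeds each occur once. The locus with the clearest changes holds the hairpins of Mir144 (chr11:78073005-78073070, plus strand) and Mir451a (chr11:78073170-78073241, plus strand), shown here with the mature strand in capitals.
Mir144 hairpin: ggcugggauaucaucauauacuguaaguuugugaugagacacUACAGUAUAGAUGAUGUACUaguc
Mir451a hairpin: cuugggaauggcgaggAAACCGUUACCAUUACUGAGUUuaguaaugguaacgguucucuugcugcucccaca
In the Mir451a hairpin the mature strand reaches across the loop.

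The histone lists differed little in size, with 12925 to 14452 peaks for H3K4me3 and 17247 to 18333 for H3K27ac. The CTCF lists differed more, with 33193 peaks at 0 h and 41473 at 24 h. All are peak lists and carry no depth, which is therefore unknown. The absence of a peak can reflect depth or background as well as the mark. H3K4me3 peaks lay at the promoters of 5 of 8 erythroid markers in every list, against 0 of 6 myeloid, 0 of 5 lymphoid, 0 of 4 mast cell, 1 of 4 megakaryocyte and 0 of 4 non-hematopoietic markers. No myeloid, lymphoid or non-hematopoietic marker had one in any list, but 3 of the 4 mast cell markers did, each in both lists at 0 h. These were Kit in 8 lists, the mast cell protease Cpa3 in 7 and the IgE receptor subunit Ms4a2 in 9. Cpa3 covered a mean of 2293.5 bp at 0 h and none at 24 h (limma adjusted p = 0.36), and Ms4a2 covered 2233 bp against 369.5 bp (limma adjusted p = 0.31). What part this has in the results at the microRNA loci was not tested. For H3K27ac, 2 of 8 erythroid and 3 of 4 megakaryocyte markers had a promoter peak in every list. The counts were 0 of 6 myeloid, 0 of 5 lymphoid, 0 of 4 mast cell and 0 of 4 non-hematopoietic markers. Among these, the myeloid marker Cd68 had a peak in 9 lists, Ms4a2 in 8 and Cpa3 in 2. H3K27ac thus did not set the erythroid markers apart. Tal1, a defining erythroid factor, had no H3K4me3 or H3K27ac peak within 2 kb of the annotated start used here in any list. The study describes the replicates as independent experiments, which the sample labels do not detail. The p-values rest on the spread between the 2 lists within time points. limma pools that spread over all time points of a mark and draws it toward that of the other features.

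At Mir144 and Mir451a the peaks of both marks changed. The H3K4me3 peak over the hairpins became longer between 0 and 24 h, while the H3K27ac peak that covered them at 0 h was absent from all 8 later lists. Of the 4 loci, this was the only one with a called change in either mark. Regions are stretches covered by a peak of the mark in any of its 10 lists, with touching peaks joined. The covered length of a region was tested with limma on log2(bp + 200), with Benjamini-Hochberg adjustment over every region that 2 or more lists shared.

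The H3K4me3 region (chr11:78071231-78075763) had a peak in all 10 lists. Its covered length was 2032 and 2098 bp at 0 h, 2459 and 1942 after 2 h, 2643 and 2652 after 6 h, 3442 and 3346 after 12 h, and lastly 4189 and 4132 after 24 h. Both lists at 24 h lay above those of every earlier time point, and the lists at 0 and 2 h overlapped. The mean was 2065 ± 46.7 bp (SD, n = 2) at 0 h and 4160.5 ± 40.3 bp (SD, n = 2) at 24 h, a log2 difference of 0.95 (SE 0.091, limma adjusted p = 0.0036). The difference from 0 h also passed the test at 12 h (log2 difference 0.67, limma adjusted p = 0.041), but not at 6 h (0.33, limma adjusted p = 0.35) or 2 h (0.076, limma adjusted p = 0.97). These contrasts share the 0 h lists.

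Such changes were uncommon. Over all H3K4me3 regions tested, 0.471% were called longer and 1.11% shorter at 24 h, and 0.0942% were called longer at 12 h. Among the 11506 regions with a peak in all 10 lists, the region over the hairpins ranked 12 by its log2 difference at 24 h. Its mean length increased at every step of the time course, as in 1.08% of these regions. Both lists at 24 h exceeded both at 0 h, as in 16.5%. How many regions had both lists at 24 h above all earlier lists was not counted.

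The extension was measured on both sides of the hairpins. The peak reached 773 ± 14.1 bp (SD, n = 2) upstream of Mir144 at 0 h and 1573.5 ± 284 bp (SD, n = 2) at 24 h. Downstream of Mir451a it reached 1055 ± 32.5 bp (SD, n = 2) at 0 h and 2350 ± 243 bp (SD, n = 2) at 24 h, at both times within the body of Eral1, a mitochondrial ribosome assembly factor transcribed toward the hairpins. The peak was of modest score, the authors' value for the strength of a peak. It stood at the percentiles 28.6 and 34.3 of its lists at 0 h and 47.7 and 48.4 at 24 h, while its length went from the percentiles 47.4 and 48.6 to 91 and 90.4.

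The promoter of Eral1, the only protein-coding start within 20 kb, served as a neighbor in the same lists. Its H3K4me3 region (chr11:78078791-78081509) covered 2421 ± 15.6 bp at 0 h (mean ± SD, n = 2) against 2531 ± 2.83 bp at 24 h (n = 2), with a log2 difference of 0.059 (SE 0.095) and a limma adjusted p of 0.88. Over the 10 lists it ranged from 2149 to 2694 bp with no order by time.

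**Figure D1:**
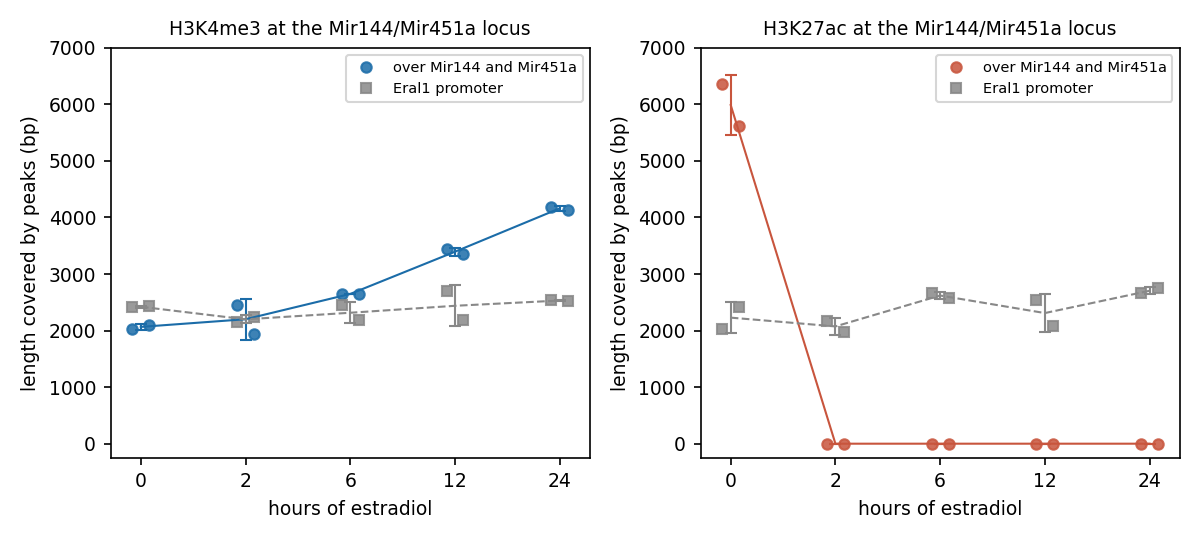
Length covered by peaks in base pairs (y axis) against hours of β-estradiol (x axis) for H3K4me3 (left) and H3K27ac (right), over Mir144 and Mir451a (circles) and at the Eral1 promoter (squares). Points are lists and lines join means with bars of 1 SD (n = 2); over the hairpins, H3K4me3 reaches 4132 and 4189 at 24 h and H3K27ac is 0 from 2 h on, while the Eral1 promoter stays between 1972 and 2746 bp.

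For H3K27ac, the absence of a listed peak was what changed, which gives no direction for the mark itself. The region chr11:78068049-78074411 held a peak of 6363 and 5612 bp in the lists at 0 h, and 0 bp in both lists at 2, 6, 12 and 24 h. The groups did not overlap at any later time. These peaks were long, at the percentiles 96.9 and 95 of their lists, but low in score, at the percentiles 16.4 and 27.2. They extended 4715.5 ± 340 bp (SD, n = 2) upstream of Mir144 and 1035 ± 191 bp (SD, n = 2) downstream of Mir451a, and so lay mostly in the sequence before the hairpins. limma called the region shorter at 24 h, by a log2 difference of −4.95 (SE 0.29) with a limma adjusted p of 2.76e-04, and already at 2 h (limma adjusted p = 6.25e-04). The size of this difference is set by the pseudocount, since the later values are 0, and runs from −6.91 with 50 bp to −2.80 with 1000 bp.

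A loss of the listed peak (none in both lists at 24 h) after presence in both at 0 h occurred in 4.18% of H3K27ac regions, and the reverse gain in 3.43%. Of the regions tested, limma called 3.02% shorter and 3.3% longer at 24 h, and 0.785% shorter at 2 h. Presence in both lists at 0 h and in none of the 8 later lists occurred in 0.399% of regions (97 of 24299). For H3K4me3 no region near the 6 microRNAs was gained or lost at 24 h, against 0.456% gained and 3.88% lost over all regions. limma assumes normal noise, which a length that drops to 0 does not follow, so the adjusted p of such a region is approximate. Over the hairpins all later lists are 0, so the spread comes from the lists at 0 h and from other regions. The calls there at 2 h and 24 h are therefore not separate tests.

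The longest peaks were of similar length in every list of a mark, and the sources used here do not say whether processing limited peak length. The H3K27ac peaks over the hairpins at 0 h measured 6363 and 5612 bp. No histone peak was longer than 9200 bp, and the longest H3K27ac peak of each list measured 8769 to 8973 bp. H3K27ac regions whose longest peak was 4 to 6 kb had a peak in all 10 lists in 89.4% of cases, those of 6 to 8 kb in 71.5%, and those above 8 kb in 31.1%. For H3K4me3 the shares were 98.8%, 95.7% and 60.8%. Whether the lists have a limit of peak length was not tested. Whether the H3K27ac domain over the hairpins shrank below detection or grew past such a limit cannot be told apart in these lists. Of the 97 regions seen at 0 h only, 11.3% reached more than 5 kb in a list, against 12.3% of all H3K27ac regions. The first share rests on the lists at 0 h and the second on up to 10 lists, so the 2 are not alike. The median of the longest covered length was 927 bp over the 97 regions.

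**Figure D2:**
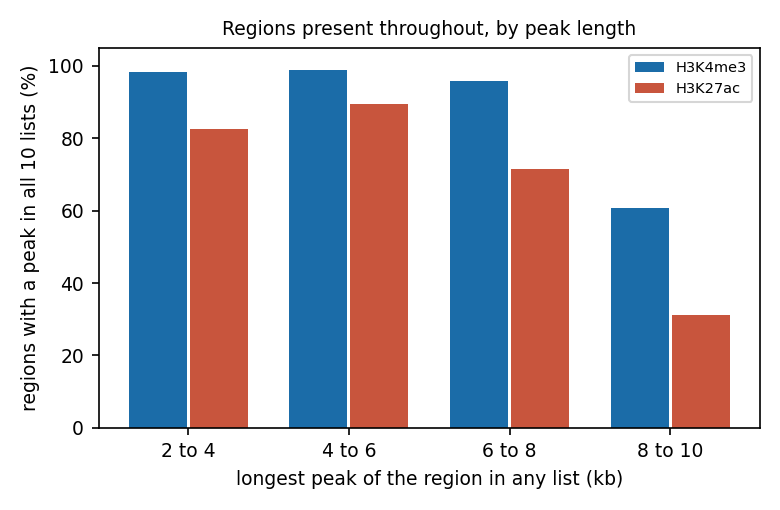
Share of regions with a peak in all 10 lists (y axis, percent) by the longest peak of the region in any list (x axis, kb), for H3K4me3 (blue bars) and H3K27ac (red bars). For H3K27ac the share is 89.4% at 4 to 6 kb and 31.1% above 8 kb.

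At the Eral1 promoter the H3K27ac region (chr11:78078723-78081639) had a peak in all 10 lists. It covered 2228.5 ± 275 bp at 0 h (mean ± SD, n = 2) against 2703.5 ± 60.1 bp at 24 h (n = 2), with a log2 difference of 0.26 (SE 0.12) and a limma adjusted p of 0.28. The absence over the hairpins was thus not shared by the nearest H3K27ac region, which began 4311 to 5009 bp beyond the right end of the lost one. On the left, the next H3K27ac peak lay 29225 to 29511 bp away in every list. The H3K27ac peaks at the Eral1 promoter scored at the percentiles 69 to 89.6 of their lists, against 16.4 and 27.2 for those over the hairpins. They therefore cannot show whether weaker peaks fell below detection in the later lists.

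Across the genome, H3K4me3 regions that overlapped an H3K27ac region lost at 24 h numbered 262 of the 14862 tested, and 8 of the 70 called longer. For H3K27ac regions seen at 0 h only, the counts were 28 of 14862 and 4 of 70, the region over the hairpins included. The combination seen at Mir144 and Mir451a was therefore present at 3 other called regions.

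**Figure D3:**
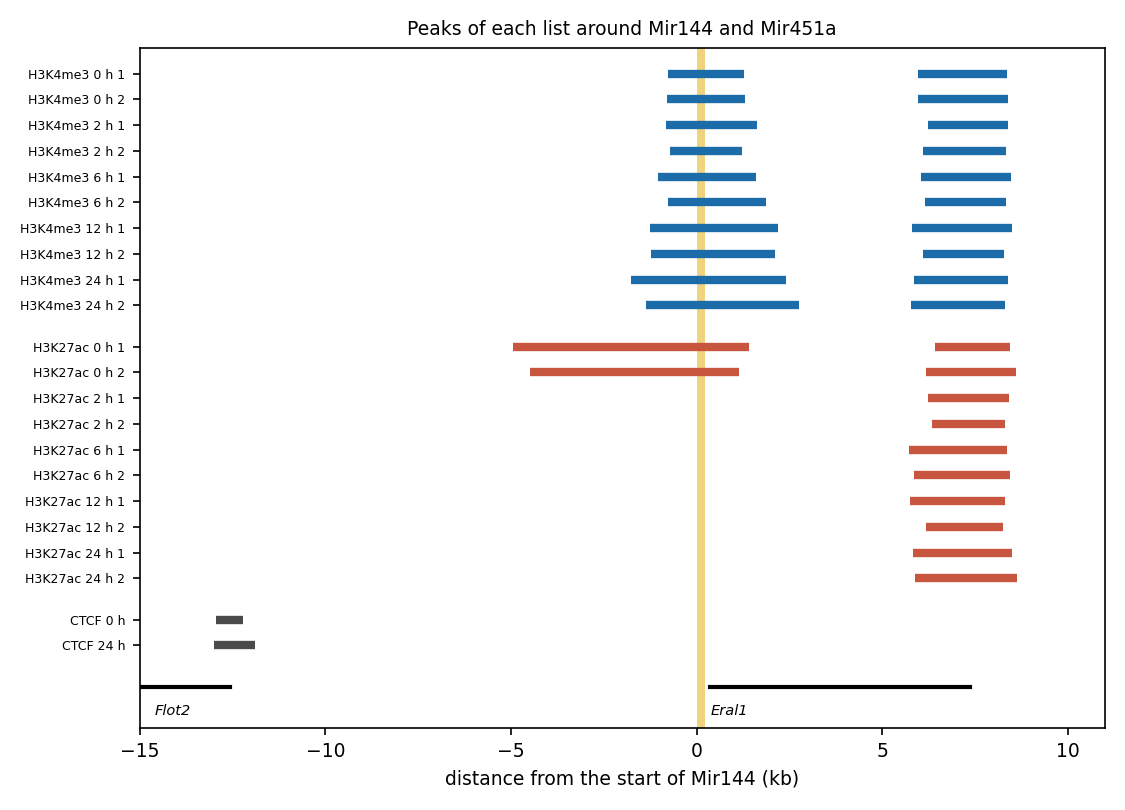
Peaks of each of the 22 lists (rows) by distance from the start of Mir144 in kb (x axis), with H3K4me3 in blue, H3K27ac in red and CTCF in gray. The yellow band spans both hairpins and black lines mark the bodies of Flot2 and Eral1. The H3K4me3 peak widens down the rows, the H3K27ac peak appears in the 2 lists at 0 h only, and the Eral1 promoter peaks on the right are in all 20 histone lists.

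The sequence under the lost H3K27ac region was searched for GATA factor motifs (the hexamer AGATAA, the hexamer AGATAG, the hexamer TGATAA or the hexamer TGATAG, both strands), because GATA1 is the factor switched on here. It held 11 matches, or 1.73 per kb, against a median of 1.91 per kb over 24297 H3K27ac regions (percentile 43.9). The stretch upstream of Mir144 was divided into 16 windows of 300 bp, and the one with the most matches is shown with the hexamers in capitals (chr11:78069549-78069848, plus strand of GRCm38.p6).
Mir144 upstream window: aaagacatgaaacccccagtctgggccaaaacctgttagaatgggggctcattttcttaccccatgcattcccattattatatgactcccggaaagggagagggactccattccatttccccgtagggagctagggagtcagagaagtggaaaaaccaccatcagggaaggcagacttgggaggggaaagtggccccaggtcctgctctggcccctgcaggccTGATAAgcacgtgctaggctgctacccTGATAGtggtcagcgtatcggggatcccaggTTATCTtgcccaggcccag
It begins 3456 bp upstream of Mir144 and holds 3 matches that do not overlap. As many were present in 3.62% of 215878 windows of this length in H3K27ac regions, and at least 1 in 41.5%. The window was picked for its matches, so this share is a description, and a match is not evidence of binding.

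CTCF had 1 peak in each list within 20 kb of the pair. It measured 752 bp at 0 h (chr11:78060047-78060798) and 1094 bp at 24 h (chr11:78060006-78061099), across the 3′ end of Flot2, a membrane scaffold protein. Its score was high within each list, at the percentiles 88.2 and 96.1, and the nearer edge lay 12207 bp upstream of Mir144 at 0 h and 11906 bp at 24 h. The part shared by both lists held 1 match to a CTCF core (the heptamer AGGGGGC, the heptamer AGGTGGC, the heptamer AGATGGC or the heptamer AGAGGGC, both strands), shown in capitals (chr11:78060581-78060610).
CTCF core match at Flot2: gcactgaggcaAGGGGGCggaggatgcaga
The match lay 170 bp from the middle of the shared part and outside the body of Flot2. Windows of the same length (752 bp) centered on the 41473 CTCF peaks at 24 h held such a heptamer in 81.6% of cases, and in 43.3% when moved by 5 kb. With 1 list per time point, the difference in CTCF peak length has no replicate check. The list at 24 h also held more peaks in all, 41473 against 33193 at 0 h.

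Between 20 and 50 kb from the pair, an H3K27ac region lay in an intron of Fam222b, 28268 bp downstream of Mir451a (chr11:78101509-78105279). It is named here after its values were seen. It covered 0 bp in both lists at 0 h, 1143 and 0 after 2 h, 1998 and 1599 after 6 h, 1815 and 2721 after 12 h, and lastly 3771 and 2482 after 24 h. limma called it longer at 24 h, by 4.03 on the log2 scale (SE 0.82) with an adjusted p of 0.037, a size set by the pseudocount, and it counted as gained. It was 1 of 2 H3K27ac regions called among 10 tested within 50 kb of the 6 microRNAs, the other being that over the hairpins. Over all H3K27ac regions tested, 3.3% were called longer and 3.02% shorter, and 3.43% of all regions were gained. For H3K4me3, 1 of 7 was called, where 0.471% of all regions tested were called longer and 1.11% shorter. Counts this small give no rate of change near the microRNAs.

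At Mir223 the record was of H3K27ac only, with lower values at 12 and 24 h that did not pass the test. Mir223 (chrX:96242817-96242926, plus strand) lies within F630028O10Rik, a non-coding host RNA that starts 2891 bp upstream. An H3K27ac region over that start (chrX:96238591-96241183) covered 2593 and 2256 bp at 0 h, 2273 and 2207 after 2 h, 1943 and 1688 after 6 h, 0 and 1473 after 12 h, and lastly 0 and 605 after 24 h. Both lists at 24 h were below all 6 lists of the first 3 time points. How many of all H3K27ac regions show such an order was not counted, so whether it is particular to this region is unknown. No peak was present in 1 list at 12 h and 1 at 24 h. The mean was 2424.5 ± 238 bp (SD, n = 2) at 0 h and 302.5 ± 428 bp (SD, n = 2) at 24 h. The log2 difference was −2.71 (SE 1.03, limma adjusted p = 0.20).

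All 8 of these peaks scored low, from 54.7 to 130 on the authors' scale, at the percentiles 3.7 to 29.7 of their lists. No H3K4me3 list had a peak within 20 kb of Mir223, and the nearest H3K4me3 peak lay 111292 to 143293 bp away. The CTCF lists had none either. The promoter of F630028O10Rik is the sequence covered whole by all 8 H3K27ac peaks. It is shown from RefSeq (GRCm38.p6, chrX:96239676-96239975, plus strand) with matches to the PU.1 core GAGGAA in capitals on either strand.
F630028O10Rik promoter: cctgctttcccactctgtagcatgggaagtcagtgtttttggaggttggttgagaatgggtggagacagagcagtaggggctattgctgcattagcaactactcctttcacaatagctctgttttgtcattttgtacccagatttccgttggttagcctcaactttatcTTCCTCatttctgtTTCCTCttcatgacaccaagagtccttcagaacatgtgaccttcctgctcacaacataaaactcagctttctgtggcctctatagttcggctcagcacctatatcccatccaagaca
It held 2 such matches, and 28.3% of 32851 promoters of this length held at least 1. It also held 1 GATA hexamer, which shares 1 base with a PU.1 match, as did 29.8% of promoters for any such hexamer. Over the whole H3K27ac region there were 10 GATA hexamers, 3.86 per kb (percentile 88.7 of H3K27ac regions).

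**Figure D4:**
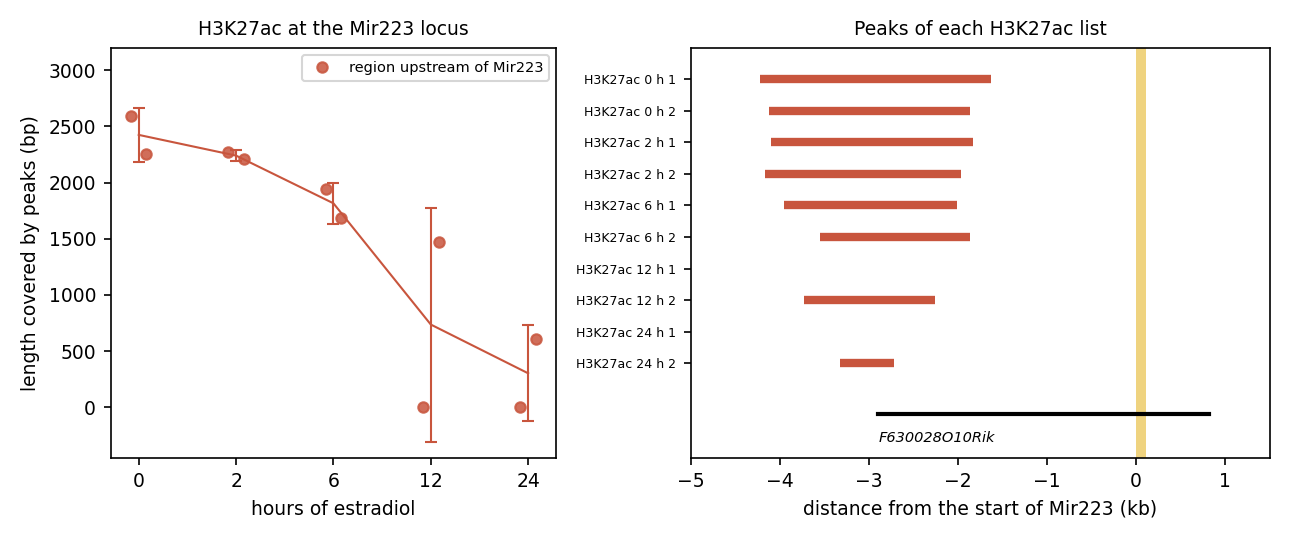
Left, length covered by H3K27ac peaks in base pairs (y axis) upstream of Mir223 against hours of β-estradiol (x axis), with points for lists and a line through means with bars of 1 SD (n = 2). Right, the H3K27ac peak of each list (rows) by distance from the start of Mir223 in kb, with Mir223 as a yellow band and the host RNA as a black line; 2 lists, 1 at 12 h and 1 at 24 h, have none.

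Mir155 (chr16:84714140-84714204, plus strand) lies in its host RNA Mir155hg, which starts 10973 bp upstream. No H3K4me3, H3K27ac or CTCF list had a peak within 2 kb of that start, or of the RefSeq start. The only mark within 20 kb was the edge of the H3K4me3 region at the promoter of Mrpl39, a mitochondrial ribosomal protein (chr16:84733987-84736516), which reached into the window by 0 to 218 bp in the 10 lists. The region itself covered 2375 ± 160 bp at 0 h (mean ± SD, n = 2) against 2341 ± 80.6 bp at 24 h (n = 2), with a log2 difference of −0.018 (SE 0.083) and a limma adjusted p of 0.99. H3K27ac peaks began 20028 to 20240 bp from Mir155, at the same promoter.

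Mir221 (chrX:19146294-19146388, minus strand) and Mir222 (chrX:19146893-19146971, minus strand) had no peak within 20 kb in any of the 22 lists. The nearest H3K4me3 peak to Mir221 lay 979967 to 981189 bp away, the nearest H3K27ac peak 957892 to 981244 bp, and the nearest CTCF peak 703698 and 703719 bp. By the median over lists, 3.77%, 4.13% and 2.32% of all microRNA genes lay as far or farther from a peak of these kinds. The start of Gm14636, a non-coding transcript on the same strand whose body overlaps the window, had no peak within 2 kb in any list, whether placed by GENCODE or by RefSeq.

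Summed over each microRNA gene with 20 kb on either side, the windows of Mir144 and Mir451a covered 4486 ± 62.2 bp of H3K4me3 at 0 h (mean ± SD, n = 2) against 6691.5 ± 43.1 bp at 24 h (n = 2), with a log2 difference of 0.56 (SE 0.065) and a limma adjusted p of 0.0029. Over the 826 windows tested, 0.969% were called longer and 1.57% shorter. For H3K27ac the same windows covered 8216 ± 256 bp at 0 h (mean ± SD, n = 2) against 2703.5 ± 60.1 bp at 24 h (n = 2), with a log2 difference of −1.54 (SE 0.11) and a limma adjusted p of 5.54e-04, and what was left at 24 h was the Eral1 promoter. Of 898 windows tested for H3K27ac, 3.9% were called longer and 1.78% shorter. The windows of Mir144 and Mir451a overlap almost whole and are 1 observation. Neither Mir223 for H3K27ac (limma adjusted p = 0.24) nor Mir155 for H3K4me3 (limma adjusted p = 0.92) was called, and Mir221 and Mir222 were at 0 bp throughout. With windows of 50 kb the call for Mir144 and Mir451a ended in both marks (limma adjusted p = 0.13 for H3K4me3, and 0.49 and 0.52 for H3K27ac).

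**Figure D5:**
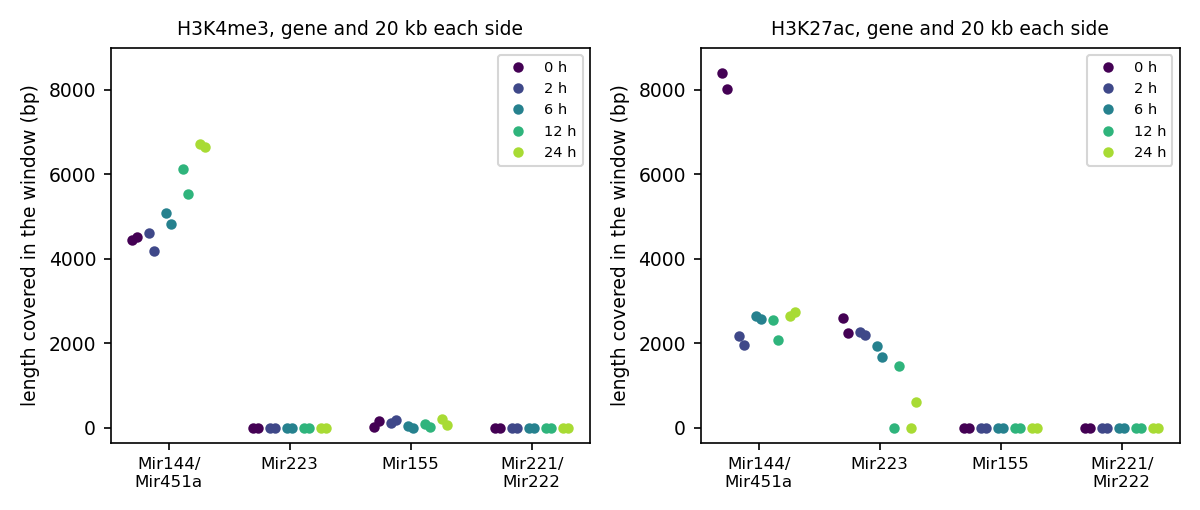
Length covered by peaks in base pairs (y axis) in the window of each microRNA locus (x axis), for H3K4me3 (left) and H3K27ac (right). Each point is a list, colored by hours of β-estradiol. H3K4me3 at Mir144 and Mir451a runs from 4190 to 6722 bp, H3K27ac there is above 8000 bp at 0 h only, and Mir221 and Mir222 are at 0 in all lists.

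The window whose H3K27ac followed that of Mir144 and Mir451a most closely over the 10 lists was that of mmu-mir-3084-1 (Pearson r = 0.99), with 7420.5 bp at 0 h against 2609 bp at 24 h. Mir7660 (r = 0.92) and Mir7682 (r = 0.91) came next among 844 windows compared. For Mir223 the closest were Gm47286 (r = 0.95), Gm26237 (r = 0.90) and Gm27686 (r = 0.89), of which Gm47286 covered 2791 bp before and 1062.5 bp after 24 h. The lists compared share libraries and time points, and these values describe likeness only.

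Other microRNAs known from blood cells were examined by the same windows. Of 40 listed, 38 were matched. For H3K27ac, 28 had enough peaks to be tested, and 3 were called longer and 0 shorter, where 3.9% and 1.78% of all windows were. At an unadjusted p under 0.05 there were 8, or 28.6%, against 18.4% of all windows. Neighboring microRNAs can share a window, and the 8 hold 7 distinct sets of values. Mir126a, in the endothelial and stem cell gene Egfl7, covered 4437 ± 175 bp at 0 h (mean ± SD, n = 2) against 6278 ± 89.1 bp at 24 h (n = 2), a log2 difference of 0.48 with a limma adjusted p of 0.013. Mir130a covered 4106 ± 757 bp at 0 h (mean ± SD, n = 2) against 7202.5 ± 609 bp at 24 h (n = 2), a log2 difference of 0.79 with a limma adjusted p of 0.017. Mir182 had 0 bp in both lists at 0 h and 1894.5 ± 36.1 bp (SD, n = 2) at 24 h (limma adjusted p = 7.55e-04). The windows of its close neighbors Mir96 and Mir183 had no H3K27ac peak in any list. The covered stretch thus lies at the outer edge of the Mir182 window, not at Mir182 itself. For H3K4me3, 29 windows were tested and limma called 0 in either direction, with 15 (51.7%) at an unadjusted p under 0.05 against 16.5% of all windows. The 15 hold 9 distinct sets of values, since Mir17, Mir19a, Mir20a and Mir92-1 share one, as do Mir23a, Mir27a and Mir24-2, and Mir15a and Mir16-1. The largest differences were Mir150 (log2 difference 0.75, limma adjusted p = 0.49, with an SD of 6614 bp at 0 h), Mir142 (0.64, limma adjusted p = 0.11) and the shared window of Mir15a and Mir16-1 (0.51, limma adjusted p = 0.17). At Mir142, a microRNA of all blood lineages, H3K4me3 covered 8465.5 ± 269 bp at 0 h (mean ± SD, n = 2) against 13297 ± 235 bp at 24 h, and H3K27ac went from 3020 ± 1517 bp to 0 in both lists (limma adjusted p = 0.15).

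The genes that make microRNAs and genes known as targets of the 6 microRNAs were followed by their promoters, within 2 kb of the start, where 4001 bp is the largest value. Of 36 such genes, 31 were tested for H3K4me3 and 27 for H3K27ac, and limma called 0 in either mark, with 5 and 6 at an unadjusted p under 0.05, a level reached by 7.63% and 13.8% of all promoters. Over all promoters, 0.0795% were called longer and 0.199% shorter for H3K4me3, and 0.921% and 0.673% for H3K27ac. Among the genes tested, Ddx5, Myc and Jarid2 covered the full 4001 bp of H3K4me3 in all 10 lists. Nfe2l2, Myc and Jarid2 did so for H3K27ac. A lengthening could not be seen at these promoters, and the counts and medians given here include them. Of the 14 processing genes, 13 had an H3K4me3 peak in all 10 lists, among them Drosha and Dgcr8, which cut the hairpin from its transcript, Xpo5, which exports it, and Dicer1 and Ago2. Their median log2 difference was −0.027, against −0.0089 for all promoters. The median over targets was −0.015 for miR-144 and miR-451a (6 tested), −0.036 for miR-221 and miR-222 (2 tested), 0.044 for miR-223 (4 tested) and −0.0091 for miR-155 (6 tested).

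Among these genes the largest H3K4me3 differences were at Foxo3, Lmo2, Nfia and Socs1. Lmo2, an adaptor of the erythroid GATA1 and TAL1 complex, covered a mean of 1379 bp at 0 h against 2709.5 bp at 24 h (log2 difference 0.88, limma adjusted p = 0.055). Foxo3, a transcription factor of red cell maturation, went from 2000.5 bp to 0 (limma adjusted p = 0.84), and each of its 10 values was either 4001 bp, in 6 lists, or 0. Nfia, a miR-223 target, had a log2 difference of −0.45 (limma adjusted p = 0.31) and Socs1, a cytokine signaling inhibitor, one of −0.22 (limma adjusted p = 0.22). For H3K27ac they were at Cdkn1b, Ywhaz, Dis3l2 and Nfia. Cdkn1b, the cell cycle inhibitor p27 and a target of miR-221 and miR-222, had 3138 bp at 0 h and 0 at 24 h (limma adjusted p = 0.21), with a peak in 3 of 10 lists. Ywhaz, a miR-451a target, had 0 and 2910 bp at 0 h, then 4001 and 3534 after 12 h, and 0 in the lists of the other times (limma adjusted p = 0.53 at 24 h), with no order by time. The means at 0 and 24 h were 2392.5 and 3786.5 bp at Dis3l2 (limma adjusted p = 0.17) and 2710 and 1962.5 bp at Nfia (limma adjusted p = 0.57). Kit had an H3K4me3 peak in 8 lists, with means of 3114.5 bp at 0 h against 2977 bp at 24 h, and Spi1, which encodes PU.1 and is a miR-155 target, had 1952 bp at both times. Kit and Spi1 are named outside the rule, after their values were seen.

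None of the peaks over Mir144 and Mir451a or upstream of Mir223 reached the pooled median score of its mark, so a filter at that score removes these regions and ends the calls over the hairpins. The call of the H3K27ac region also ends without either list at 0 h, because the region then has a peak in 1 list only. With regions of at least 1 list admitted, a setting added after the data were seen, the log2 difference was −4.86 without list 1 and −5.04 without list 2. Each of these rests on 1 list at 0 h against later values that are all 0. Such a fit has no spread of its own at this region, so it is no check of the call.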

How the data were processed

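H3K4me3, H3K27ac and CTCF were measured by ChIP-seq in G1ER cells. Per the study's methods, histone reads were aligned to mm10 with Bowtie2, uniquely mapped reads were kept, and peaks were called with MACS for each library. Methods for CTCF, the MACS version and the threshold were not given in the sources used here. The deposited files give position and a score for each peak, the authors' value, used here only to rank or filter peaks because libraries differ in scale. The protocol text of the labels names the human build hg19, while their build field names mm10, which was used. As a check of it, a protein-coding start (GENCODE M21) lay in 63.7% to 70.2% of H3K4me3 peaks, against 10.8% to 11.58% when moved by 50 kb. The lists were grouped by antibody and hours as titled. Touching peaks of a mark were joined across its lists into regions. Regions, microRNA windows and promoters (2 kb either side of 1 start) were fitted with limma (lmFit, eBayes with trend, 5 time means) on log2(covered bp + 200), each over its whole table. An exact permutation test of 2 against 2 lists cannot go below p = 0.333. Members and gene lists were chosen with earlier results of these data known. The rule for named genes took the 6 microRNAs, their hosts and neighbors within 20 kb, all regions there, called listed genes or, with none called, the 4 with the largest difference, and the 3 windows most like each locus in H3K27ac. The limma fit was also run on simulated lengths with normal noise, made from features with a peak in every list. That simulation held no peak absent from some lists, so it does not cover the H3K27ac call over the hairpins. Alternatives were pseudocounts, minimum lists, windows, merging, score filters, equal peak numbers, a replicate block and leaving out each list. Python 3.11.15, pandas 2.3.3, pysam 0.24.0, R 4.3.3 and limma 3.58.1 were used.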

Additional observations from a re-analysis of the deposited data

How the results depend on the processing

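Depth is unknown, there were 2 lists per time point, and neither depth nor a possible limit of peak length was varied. There were 162 alternatives for counts, both of calls and of untested gained or lost regions and CTCF peaks. Of these, 136 stayed within 1.5 times the reported count, counts of 0 that stayed at 0 included. When peaks below the median score of their mark were dropped, the called regions near the microRNAs went from 1 to 0 for H3K4me3 and from 1 to 0 for H3K27ac, the called windows from 2 to 0 in both marks, and the lost H3K27ac regions from 1 to 0. The log2 difference of the H3K27ac windows of Mir144 and Mir451a then turned to 0.26, since only the Eral1 promoter remained by construction. With a window of 50 kb, called microRNA windows went from 2 to 0 in both marks, called H3K27ac regions from 1 to 2, gained H3K27ac regions from 0 to 1, and the Mir155 H3K4me3 window turned to −0.018. With a peak required in at least 5 lists, 0 H3K27ac regions were called. For the listed promoters, reported at 0, the H3K4me3 count was 1 with a pseudocount of 1000 bp (Lmo2) and 1 with promoter windows of 5 kb (Lmo2), and the H3K27ac count was 1 with the lists at 0 h and 24 h only (Cdkn1b) and 1 with promoter windows of 5 kb (Drosha); the cause was not tested. CTCF peaks near the microRNAs at 0 h, reported as 1, were 0 within 10 kb and 8 within 50 kb, windows added after the data were seen.

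Leaving out each list in turn gave 1 called H3K4me3 region throughout, 0 to 1 called H3K27ac regions, 2 called windows in both marks, and 1 to 2 lost H3K27ac regions, the second, without list 2 at 24 h, being that upstream of Mir223. Called listed promoters ran from 0 to 3 for H3K4me3 (3 without either list at 2 h: Drosha, Lmo2 and Nfia; 1 without list 2 at 12 h: Socs1) and from 0 to 2 for H3K27ac (without either list at 2 h: Drosha and Cdkn1b; without list 1 at 0 h: Ywhaz and Bach1; 1 without list 1 at 24 h: Cebpb). The uncalled difference at the Mrpl39 promoter ran from −0.081 to 0.045 (0.045 and 0.014 where it turned) and that of the Mir155 H3K4me3 window from −0.14 to 0.55 (−0.14 and −0.088 where it turned). The cause was not tested.

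The replicate numbers did not pair the lists. Deviations of same-numbered lists correlated at −0.0758 to 0.0318 for H3K4me3 and −0.0293 to 0.0168 for H3K27ac over 10 pairs of times, with 0 above 0.1. A replicate block left 1 called region and 2 called windows in each mark and 0 listed promoters (limma adjusted p = 0.0098 for the H3K4me3 and 0.0018 for the H3K27ac region over the hairpins).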
